A study of Mus musculus with 30 samples.

Results

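Matrix metalloproteinases are secreted or membrane-bound zinc proteases that cut collagens, elastin and other matrix proteins, and the tissue inhibitors of metalloproteinases (TIMPs) are small proteins that block their active site. The genes described here were 7 proteases (Mmp2, Mmp8, Mmp9, Mmp12, Mmp13, Mmp14 and Mmp19) and 3 inhibitors (Timp1, Timp2 and Timp3). They were found by gene symbol, 1 row each, among 25611 gene rows, and all 10 were among the 14808 rows that passed a filter on low counts. The set was chosen with results of these data in view, because Mmp14 rose less in knockout than in wild-type cells after 4 h of ovalbumin. The libraries of that contrast are the untreated and 4 h ovalbumin libraries of both genotypes. Every contrast that holds any of these libraries is therefore given for Mmp14 as a description with no test, as is the difference between genotypes in the response to 4 h of ovalbumin for all 10 genes.

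RNA was sequenced from dendritic cells grown from mouse bone marrow over 6 to 7 days in FLT3L at 200 ng/ml. The cells were wild type (WT) or Rubcn KO (KO), and Rubcn encodes Rubicon, a protein of LC3-associated phagocytosis. For each genotype there was an untreated group, and the others received ovalbumin protein (OVA) or apoptotic Jurkat cells. Jurkat is a line of human leukaemic T cells, and each treatment lasted 30 min or 4 h. These 10 groups had 3 libraries each, 30 in all. The untreated groups carry no time, so 1 untreated group per genotype served both times. The labels do not say whether the 3 libraries of a group came from separate mice or cultures, and p-values measure only the spread between these libraries, which may be technical. Total counts ran from 9.73 M (KO, 30 min of OVA, replicate 3) to 51.6 M, with a median of 44.9 M. Levels are in CPM, which are counts scaled to library size and composition. Genes were called at a false discovery rate (FDR) under 0.05 in edgeR's quasi-likelihood test, adjusted over all 14808 genes.

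Rubcn itself was lower in KO than in WT libraries in each of the 5 conditions, at 73.6% of the WT mean in untreated cells (70.4 to 75.8 against 95.6 to 104.6 CPM) and 84.7% after 30 min of Jurkat cells. Its transcript was thus still counted in the KO libraries. The dendritic cell label was checked with 12 markers, all of which passed the filter. Flt3, the receptor for the growth factor in the medium, had means of 230 to 567 CPM over the 10 groups, and Irf8, a transcription factor of dendritic cell development, of 1762 to 2220 CPM. Of the 12 markers 3, 3, 2, 4 and 4 were called lower in KO and 1, 0, 0, 0 and 2 higher. The order is untreated, 30 min of OVA, 30 min of Jurkat cells, 4 h of OVA and 4 h of Jurkat cells. Over all genes 9.97%, 12.4%, 9.25%, 12.6% and 22.9% were called in that order. Transcripts of other cell types were also present. The summed level of 12 stroma markers (collagens, Sparc, Pdgfra and others) was 799.7 to 906.2 CPM in untreated WT libraries and 1013 to 1314 CPM in untreated KO libraries. In bulk RNA, fewer cells of a type and less RNA per cell cannot be told apart.

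Dendritic cells and macrophages use these proteases to pass through and remodel tissue matrix. MMP2 and MMP9 are the gelatinases, MMP8 and MMP13 are collagenases, and MMP12 is the macrophage elastase. MMP14, also called MT1-MMP, sits in the plasma membrane and activates pro-MMP2 together with TIMP2, MMP19 is a secreted protease of basement membrane proteins, and TIMP3 is bound to the matrix.

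The bases before the start of transcription are shown for the 3 genes that rose most in WT cells after 4 h of Jurkat cells, Mmp13, Mmp14 and Timp1. They are the 250 bases upstream of each start in the RefSeq promoter table of GRCm38.p6 (the assembly named mm10), on the gene's strand. RefSeq windows were matched for 7 of the 10 genes (Mmp8, Mmp12, Mmp13, Mmp14, Timp1, Timp2 and Timp3). Capitals mark matches to the motifs searched in Mmp13: an ISRE on the minus strand, an AP-1 site and a TATA box, in that order.
Mmp13 (chr9:7272264-7272513, plus strand): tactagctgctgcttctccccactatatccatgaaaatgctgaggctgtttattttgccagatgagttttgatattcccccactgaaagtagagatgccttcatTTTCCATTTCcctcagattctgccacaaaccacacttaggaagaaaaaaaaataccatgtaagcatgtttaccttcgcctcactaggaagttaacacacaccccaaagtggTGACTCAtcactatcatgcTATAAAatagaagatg
Mmp14 (chr14:54431348-54431597, plus strand): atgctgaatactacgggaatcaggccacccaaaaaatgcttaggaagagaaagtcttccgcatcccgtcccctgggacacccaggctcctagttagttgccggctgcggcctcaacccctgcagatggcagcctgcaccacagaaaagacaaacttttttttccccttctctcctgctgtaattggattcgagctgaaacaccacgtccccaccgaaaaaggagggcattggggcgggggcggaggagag
Timp1 (chrX:20869916-20870165, plus strand): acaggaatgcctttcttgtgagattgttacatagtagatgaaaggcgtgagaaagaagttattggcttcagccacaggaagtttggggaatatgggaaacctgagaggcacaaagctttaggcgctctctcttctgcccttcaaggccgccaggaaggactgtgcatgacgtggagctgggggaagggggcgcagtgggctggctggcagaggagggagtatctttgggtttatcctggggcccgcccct
Windows of 300 bases, with 50 bases past the start, were searched on both strands for 5 motifs: AP-1 (TGANTCA), GAS (TTCNNNGAA), ISRE (by its consensus), the TATA box (TATAAA) and NF-kB (by its consensus). None of the motifs searched shares a match with another in these windows. Mmp13 held an AP-1 match that begins 35 bases before the start, a TATA box match 16 bases before it and an ISRE match 146 bases before it. Mmp12 had 2 windows in the table, 1 with an NF-kB match and 1 with an AP-1 match (TGAGTCA) and a TATA box match. Mmp8 held a TATA box match on the minus strand. Mmp14, Timp1, Timp2 and Timp3 held no match, which says only that these letters are not in these windows. Of all 32851 windows in the table, 7.81% held the AP-1 motif, 8.3% GAS, 3.44% ISRE, 13.6% the TATA box and 8.46% NF-kB. The matches are a description of the sequence and were not tested as binding sites.

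Per kilobase of exon, Mmp12 had the highest level of the 10 genes in untreated cells of both genotypes, at 56.9 ± 11.5 CPM/kb in WT and 120 ± 42.9 CPM/kb in KO (SD, n = 3). In untreated WT cells Timp2 (22.0 ± 0.73 CPM/kb), Timp1 (20.4 ± 1.07) and Mmp14 (15.6 ± 0.35) followed, with Timp2 and Timp1 less than 2 SDs of Timp1 apart. Mmp9 (7.19 CPM/kb) and Timp3 (7.17) came next, within their spread of each other, and then Mmp2 (5.14). Mmp8 (3.98 CPM/kb) and Mmp13 (3.70) lay within their spread of each other, and Mmp19 was lowest at 1.89 CPM/kb. After 4 h of Jurkat cells the order in WT cells was Mmp14 (114 CPM/kb), Mmp12 (88.7), Timp1 (61.6) and Mmp13 (60.0), with Mmp8 (1.94) and Mmp19 (1.92) at the bottom. Exon lengths were taken from an annotation other than the one used for counting, so these levels are approximate.

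**Figure D1:**
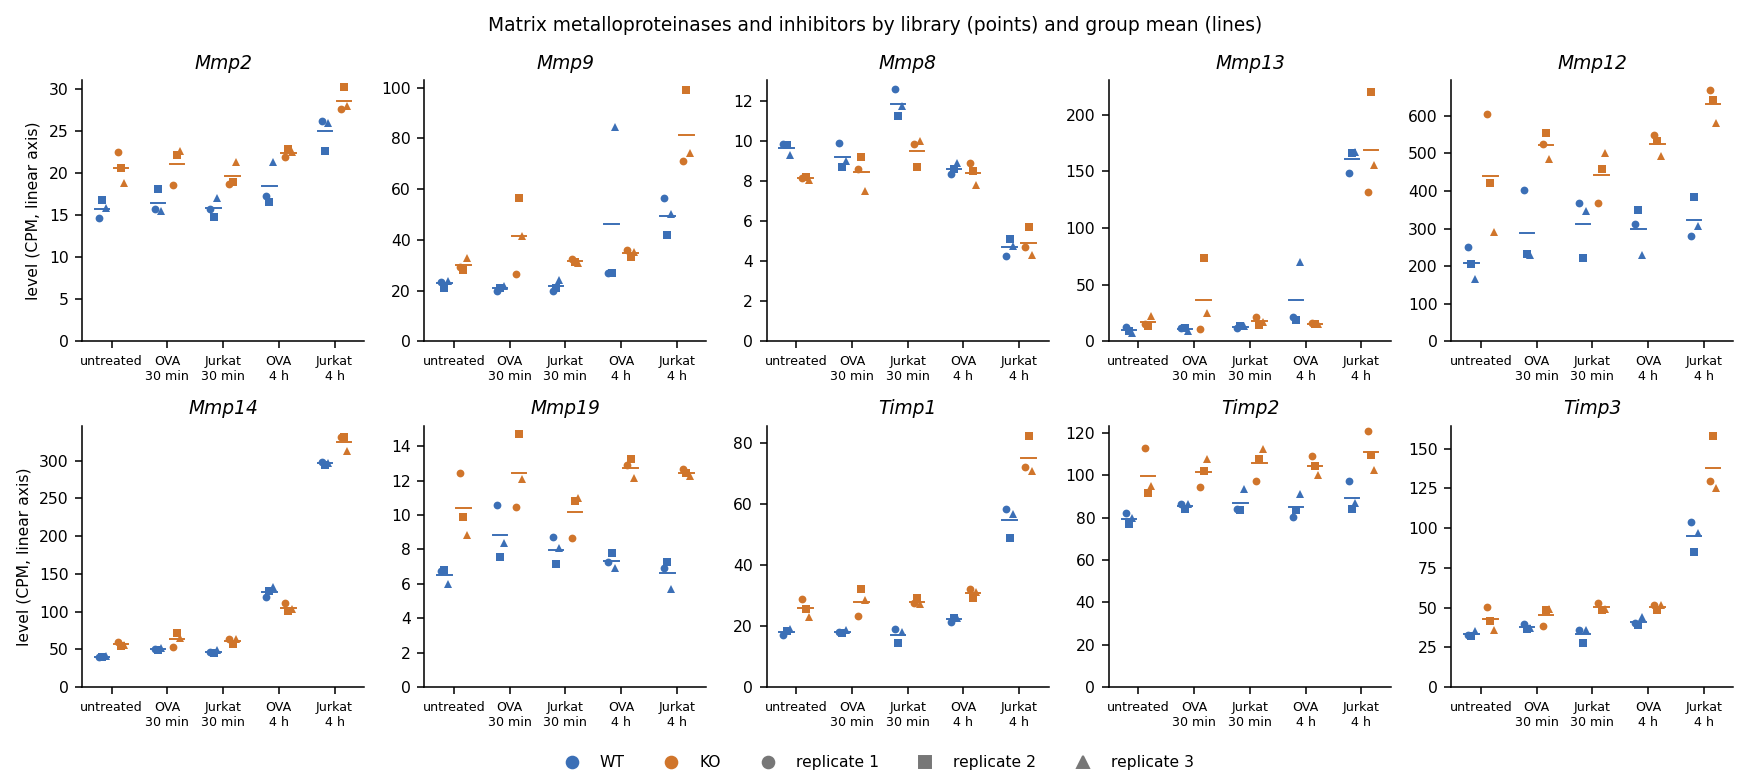
Level of each gene in CPM (linear axes from 0) in every library, by condition, with WT in blue and KO in orange, a symbol per replicate number and a line at each group mean (n = 3). Mmp14 in WT libraries rises from 39.9 to 41.6 CPM untreated to 119.4 to 132.7 CPM with OVA at 4 h and 294.4 to 297.5 CPM with Jurkat cells at 4 h, and Timp1 is higher in every KO library than in every WT library of the same condition.

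Mmp14 (Entrez 17387, mm10 chr14:54431598-54442456, plus strand) is the gene on which the set was chosen. In untreated cells its 3 library values were 40.3, 39.9 and 41.6 CPM in WT and 59.9, 54.9 and 55.6 CPM in KO. With OVA for 4 h they were 119.4, 127.0 and 132.7 CPM in WT and 111.3, 101.1 and 104.1 CPM in KO. KO libraries were thus the higher ones before OVA and the lower ones after 4 h of it, with no overlap at either point. The fitted rise was 3.11-fold in WT and 1.86-fold in KO, or 1.64 and 0.89 on the log2 scale, and the difference was -0.74 (SE 0.0927). A part of that difference, 0.48 on the log2 scale, was the higher level of untreated KO cells, and 0.26 was the lower KO level after OVA. Leaving out any 1 of the 12 libraries gave differences between -0.78 and -0.70. These are the libraries on which the gene was chosen, so that range is a description and no support for the difference.

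The other 9 genes did not share 1 pattern in that contrast. Their differences between the KO and WT responses to 4 h of OVA were -2.06 for Mmp13 (SE 0.645), -0.83 for Mmp9 (SE 0.386) and -0.26 for Mmp12 (SE 0.304), all given as descriptions. Those of Mmp2, Timp1, Timp2 and Timp3 lay between -0.11 and -0.03, and Mmp8 and Mmp19 had 0.21 and 0.13. Without WT OVA 4 h replicate 3 the value of Mmp9 was -0.04 and that of Mmp13 -1.17.

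Mmp14 libraries outside the contrast that chose it were measured at 30 min and with Jurkat cells. After 30 min of OVA the values were 50.4, 49.7 and 51.4 CPM in WT and 53.5, 71.6 and 64.7 CPM in KO. All KO libraries lay above the WT libraries, by 0.32 on the log2 scale (SE 0.0684, edgeR FDR 0.00214), but without KO replicate 2 the difference was 0.20 and its FDR 0.0889. After 30 min of Jurkat cells the values were 46.1, 44.8 and 49.9 CPM in WT and 63.3, 57.6 and 64.0 CPM in KO, a difference of 0.39 (SE 0.0667, edgeR FDR 0.000287). With Jurkat cells for 4 h they were 297.5, 294.4 and 297.2 CPM in WT and 331.0, 331.1 and 312.5 CPM in KO. The ranges did not overlap there either, yet the difference of 0.13 was not called (95% interval 0.005 to 0.26, edgeR FDR 0.127). It was 0.21 with an FDR of 0.015 when libraries were scaled to total counts.

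The response of Mmp14 to 4 h of Jurkat cells was 7.30-fold in WT and 5.72-fold in KO (2.87 and 2.52 on the log2 scale). Their difference was -0.35 (SE 0.0917). It is the KO minus WT difference after Jurkat cells (0.13) less that in untreated cells (0.48). The untreated libraries are among those on which the gene was chosen, so no test is given.

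Across the 18 untreated and OVA libraries, the genes whose log2 levels followed Mmp14 most closely were Src, a tyrosine kinase (Pearson r 0.980), Slc11a2, an iron transporter (0.967), Nrp2, a semaphorin and VEGF co-receptor (0.966), Ednrb, an endothelin receptor (0.956), and Dst, a cytoskeletal linker (0.955). These libraries share genotype, treatment and time, and the correlations describe that shared grouping.

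Between genotypes the differences mostly pointed to higher levels in KO. In untreated cells 6 of the 9 genes tested were called, all higher in KO, against 9.97% of all genes called and 6.00% called higher. After 30 min of OVA 8 of 10 were called, all higher (12.4% of all genes called, 6.25% higher), and after 30 min of Jurkat cells 6 of 10, 5 higher and Mmp8 lower (9.25% called, 5.58% higher and 3.67% lower). At 4 h 5 of 9 were called with OVA (12.6% called, 6.22% higher) and 6 of 10 with Jurkat cells (22.9% called, 9.37% higher), all higher in KO. The median KO minus WT difference over these genes was 0.40, 0.42, 0.41, 0.29 and 0.38 on the log2 scale in that order, with a median between -0.01 and 0.00 over all genes tested. The genes were picked from a larger family with values known, so these counts are not evidence for the family. The split of calls over all genes depended on scaling. With total counts 1135 of 1779 calls were higher in KO at 30 min of OVA, 1330 of 2063 at 4 h of OVA and 2999 of 4010 at 4 h of Jurkat cells, in place of 926 of 1834, 921 of 1861 and 1388 of 3392. Mmp14 is left out of the count of 9 in the 2 conditions that chose it.

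The count at 30 min of OVA rested on 1 library. Without KO replicate 2 it was 2 of 10, with Mmp12 and Timp1 still called, and leaving out other single libraries of that contrast gave 4 to 9. In the 30 min Jurkat contrast it fell to 3 without WT replicate 1.

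**Figure D2:**
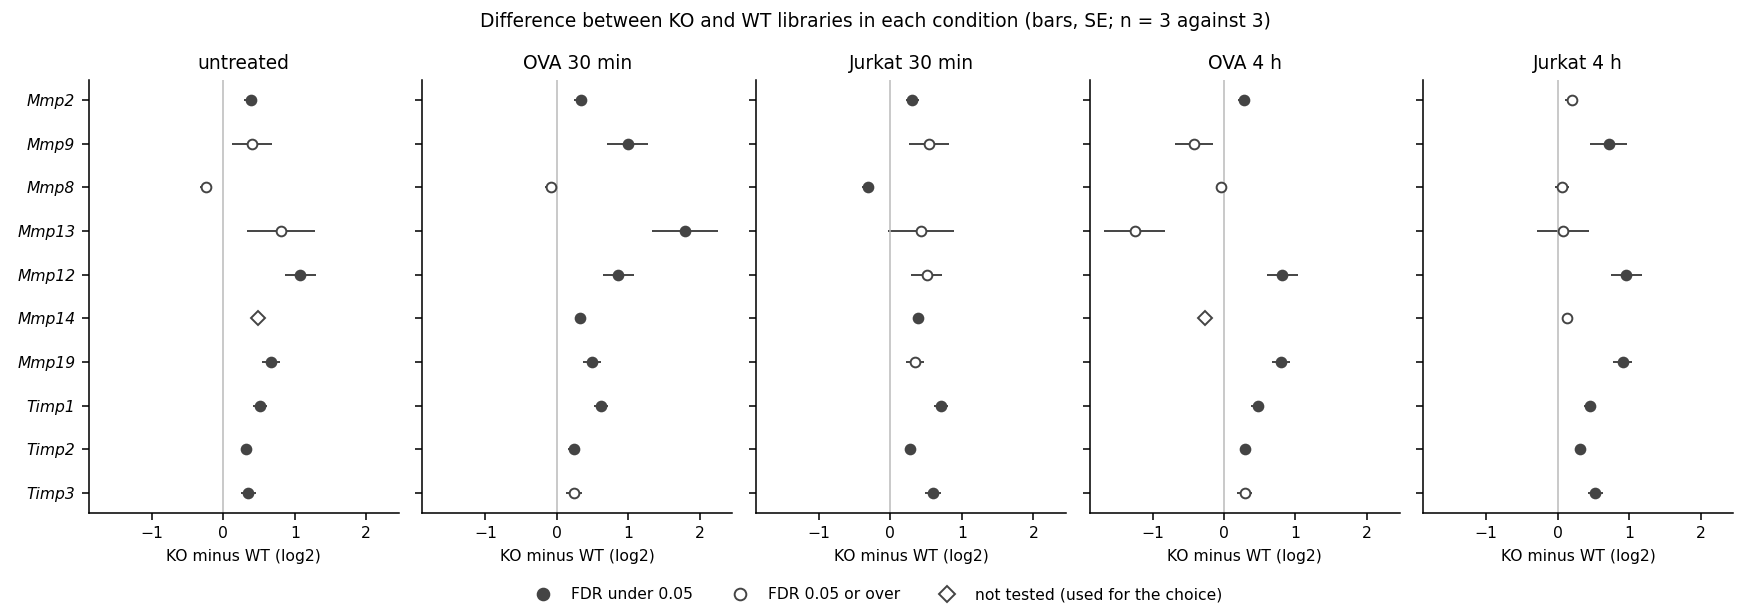
KO minus WT difference on the log2 scale for each gene in the 5 conditions, with bars of 1 SE (3 libraries against 3). Filled circles passed an edgeR FDR under 0.05, open circles did not, and open diamonds mark the Mmp14 values that were used to choose the genes. Timp1 and Timp2 are filled in all 5 conditions, and Mmp13 has the widest bars.

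The gelatinases differed in how steady they were. Mmp2 (Entrez 17390, mm10 chr8:92827297-92853421, plus strand) had 14.6, 16.9 and 15.9 CPM in untreated WT libraries and 22.5, 20.6 and 18.9 CPM in untreated KO libraries. All KO values were above all WT values, by 0.39 on the log2 scale (SE 0.089, edgeR FDR 0.0044). It was also called higher in KO after 30 min of OVA (0.34), 30 min of Jurkat cells (0.31) and 4 h of OVA (0.28), but those calls were lost without any 1 of 4, 3 and 5 of the 6 libraries compared. In the 4 h Jurkat libraries the difference was 0.20 with an edgeR FDR of 0.107.

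Mmp9 (Entrez 17395, mm10 chr2:164948219-164955850, plus strand) had 23.6, 20.9 and 24.0 CPM in untreated WT libraries and 29.3, 28.3 and 33.0 CPM in untreated KO libraries. The groups did not overlap, but the difference of 0.40 was not called in the fit of all libraries (edgeR FDR 0.443). In a fit of only the 6 untreated libraries its FDR was 0.00425. After 30 min of Jurkat cells the KO values (30.8 to 32.6 CPM) were again above all WT values (19.8 to 24.3 CPM). That difference of 0.54 was not called (edgeR FDR 0.258), and its FDR was 0.00173 in a fit of only the groups compared. In the 4 h OVA libraries the WT values were 27.1, 27.1 and 84.6 CPM and the KO values 35.9, 33.1 and 35.4 CPM. WT replicate 3 stood far above every other library of that condition. After 30 min of OVA the KO values were 26.7, 56.6 and 41.6 CPM against 19.8 to 22.0 CPM in WT, a difference of 0.99 (SE 0.287, edgeR FDR 0.0216), which was 0.61 with an FDR of 0.322 without KO replicate 2. At 4 h of Jurkat cells the KO libraries (71.1, 98.9 and 74.2 CPM) were all above the WT libraries (56.6, 41.8 and 50.4 CPM). That difference of 0.71 had an edgeR FDR of 0.0487 and lost its call without any 1 of the 6 libraries and in DESeq2 (0.0928).

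The collagenase Mmp13 (Entrez 17386, mm10 chr9:7272514-7283333, plus strand) showed the widest spread between libraries. Its values were 12.9, 9.42 and 7.39 CPM in untreated WT and 15.7, 14.0 and 22.1 CPM in untreated KO libraries. These did not overlap, but the difference of 0.81 was not called in the fit of all libraries (edgeR FDR 0.349). In a fit of only the groups compared its FDR was 0.0185. After 30 min of OVA the KO libraries had 10.6, 73.4 and 24.7 CPM, and after 4 h of OVA the WT libraries had 21.5, 18.7 and 70.3 CPM. KO replicate 2 and WT replicate 3 were again the highest of their groups. The KO minus WT difference after 30 min of OVA was 1.80 (SE 0.461, edgeR FDR 0.00975), and without KO replicate 2 it was 0.42 with an FDR of 0.69. After 4 h of OVA the KO libraries held 15.0 to 16.2 CPM, below all WT libraries, with a difference of -1.25 that was not called (edgeR FDR 0.0552). In the fit of only the groups compared the FDR was 0.0391, and without WT replicate 3 the difference was -0.36 with an FDR of 0.66.

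The same libraries were high in Ctsk and Acp5, the first 2 of 7 osteoclast genes in a list written after these values were seen. Ctsk, the collagen-degrading cathepsin K, had 53.9 CPM in WT OVA 4 h replicate 3 against 8.64 and 8.27 CPM in the other libraries of that group. In KO OVA 30 min replicate 2 it had 34.3 CPM against 8.68 and 19.7 CPM. Acp5, the tartrate-resistant acid phosphatase, had 90.6 CPM in that WT library against 22.0 and 25.7 CPM. Oscar (0.722 CPM) and Ocstamp (3.69 CPM), both low, were also highest in that WT library of its group. Atp6v0d2, a proton pump subunit, was highest there by a small margin only, at 66.5 CPM against 65.9 and 65.7 CPM. Dcstamp, a cell fusion protein, was lower at 12.52 CPM against 16.3 and 16.8 CPM. Calcr was at 0 in all 3 libraries, where a count of 0 allows up to 3 counts per library. In KO OVA 30 min replicate 2 every gene of the list was the highest of its group, Acp5 at 43.1 CPM against 16.0 and 28.7 CPM. The margin of Atp6v0d2 was small (87.8 CPM against 83.6 and 84.4 CPM), and Calcr was near 0 (0.0437 CPM). Of 6 osteoblast genes Ibsp, a bone sialoprotein, had 24.6 CPM in that WT library against 4.29 and 3.99 CPM, and Alpl, an alkaline phosphatase, 10.06 CPM against 6.48 and 6.43 CPM. Sp7 (3.96 CPM), Phex (0.333 CPM) and Bglap (0.0556 CPM), all low, were also highest in that WT library of its group. Runx2 was not, with 479.1 CPM against 495.3 and 481.2 CPM. It was the most abundant gene of that list, at 379.7 CPM or more in every library of the series. In KO OVA 30 min replicate 2 Ibsp (7.78 CPM), Alpl (11.6 CPM) and Sp7 (3.50 CPM) were highest of their group. Runx2 was lowest there (379.7 against 432.1 and 439.9 CPM), as was Phex (0.131 against 0.143 and 0.193 CPM). Bglap lay between the other libraries (0.0437 against 0.0408 and 0.0965 CPM). Ctsk and Heyl were the genes most like Mmp9 over the 18 libraries without Jurkat cells (Pearson r 0.963 and 0.945), and Lrp4 and Sfrp4 those most like Mmp13 (0.933 and 0.931). Whether the cultures held osteoclasts or osteoblasts, and any part of such cells in the Mmp9 and Mmp13 differences, were not tested.

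**Figure D3:**
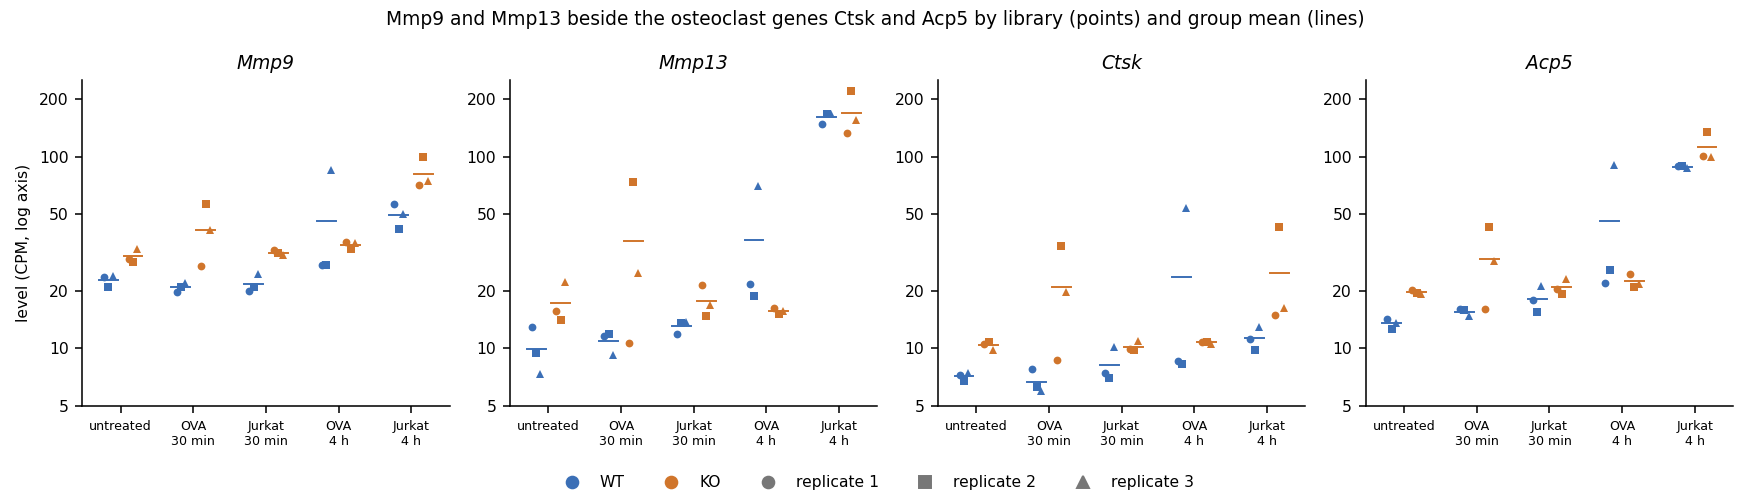
Level in CPM (log axes) of Mmp9, Mmp13 and the osteoclast genes Ctsk and Acp5 in every library, with WT in blue, KO in orange, a symbol per replicate number and a line at each group mean (n = 3). WT OVA 4 h replicate 3 and KO OVA 30 min replicate 2 stand above the other libraries of their groups in all 4 genes, and KO Jurkat 4 h replicate 2 does so too.

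Mmp8 (Entrez 17394, mm10 chr9:7558429-7568486, plus strand), the neutrophil collagenase, was the 1 gene of the set called lower in KO. Its values after 30 min of Jurkat cells were 12.6, 11.2 and 11.8 CPM in WT and 9.86, 8.72 and 10.01 CPM in KO, a difference of -0.32 (SE 0.0778, edgeR FDR 0.00869). Without WT replicate 1 or KO replicate 2 the FDR was 0.0574 and 0.0683. In untreated cells, with 9.31 to 9.86 CPM in WT and 8.07 to 8.21 CPM in KO, the difference of -0.24 fell just outside the threshold (edgeR FDR 0.0509, and 0.0365 in DESeq2). Of 12 neutrophil markers, 0 were called in the 30 min Jurkat contrast and 2 were called lower in untreated KO cells. With OVA at 30 min, OVA at 4 h and Jurkat cells at 4 h, 4, 4 and 6 were lower and 0, 0 and 1 higher. Of all genes 12.4%, 12.6% and 22.9% were called there. The Mmp8 differences of -0.09, -0.04 and 0.07 were not called. The summed level of the neutrophil markers was 193.8 to 211.6 CPM in untreated WT and 151.5 to 182.6 CPM in untreated KO libraries. Their part in the Mmp8 values was not tested.

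The elastase Mmp12 (Entrez 17381, mm10 chr9:7344397-7360461, plus strand) varied widely in untreated cells, with 250.9, 205.4 and 166.8 CPM in WT and 603.1, 421.4 and 291.8 CPM in KO. Every KO library was above every WT library even so. The difference was 1.08 on the log2 scale, or 2.11-fold (SE 0.218, edgeR FDR 0.00121). With 4 h of Jurkat cells it was 280.9, 383.8 and 306.5 CPM in WT and 668.9, 642.2 and 580.3 CPM in KO, 1.95-fold higher (0.96, edgeR FDR 0.00177). Calls in these 2 conditions held under every alternative run. After OVA Mmp12 was 0.86 higher at 30 min (edgeR FDR 0.00899) and 0.82 higher at 4 h (0.0106), and both calls were lost without 1 library (FDR 0.0691 at 30 min without WT replicate 2 and 0.0506 without WT replicate 3, and 0.0678 at 4 h without WT replicate 3). After 30 min of Jurkat cells the difference of 0.51 was not called (edgeR FDR 0.152). Stac2 and Plau, which encodes the urokinase plasminogen activator, followed Mmp12 most closely (Pearson r 0.973 and 0.972 over 18 libraries).

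Mmp19 (Entrez 58223, mm10 chr10:128790910-128800827, plus strand) was low, with 6.77, 6.81 and 6.02 CPM in untreated WT and 12.4, 9.89 and 8.83 CPM in untreated KO libraries. After 4 h of OVA the values were 7.25, 7.77 and 6.94 CPM in WT and 12.9, 13.2 and 12.1 CPM in KO, and after 4 h of Jurkat cells 6.93, 7.26 and 5.68 CPM and 12.7, 12.4 and 12.3 CPM. All KO libraries were above all WT libraries in these 3 conditions, while the ranges overlapped in both 30 min conditions. The differences were 0.67 (SE 0.13, edgeR FDR 0.000825), 0.80 (SE 0.126, 4.31e-05) and 0.91 (SE 0.135, 1.93e-05), and these calls held under every alternative run. In the 30 min OVA libraries the difference was 0.50 (edgeR FDR 0.0112), and without KO replicate 2 it was 0.31 with an FDR of 0.246. With 30 min of Jurkat cells the difference of 0.35 was not called (FDR 0.0902). Its exons share 1001 bases with those of Tmem198b and Gm47093. Since the kit does not mark strand, reads of these genes cannot be told apart there.

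The 3 inhibitors were each called higher in KO in at least 3 of the 5 conditions. Timp1 (Entrez 21857, mm10 chrX:20870166-20874737, plus strand, within an intron of Syn1 on the other strand) had 17.1, 18.5 and 18.9 CPM in untreated WT and 28.95, 25.6 and 23.1 CPM in untreated KO libraries. No KO library fell to the level of a WT library in any condition. The differences were 0.51, 0.62, 0.70, 0.47 and 0.45 on the log2 scale in untreated cells, 30 min of OVA, 30 min of Jurkat cells, 4 h of OVA and 4 h of Jurkat cells. The edgeR FDR ran from 2.09e-05 to 0.000933, and no alternative run removed a call. Efemp2 and Serpinh1, a collagen chaperone, were most like it (Pearson r 0.975 and 0.974 over 18 libraries).

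Timp2 (Entrez 21858, mm10 chr11:118301061-118355411, minus strand) had 81.9, 76.7 and 79.9 CPM in untreated WT and 112.6, 91.4 and 94.7 CPM in untreated KO libraries. Its KO libraries were above its WT libraries in every condition, by 0.23 to 0.32 on the log2 scale, and all 5 differences were called (edgeR FDR 0.00219 to 0.0335). The calls at 4 h held under every alternative run, and the 3 others were lost without at least 1 library. Timp3 (Entrez 21859, mm10 chr10:86300412-86349505, plus strand) had 33.1, 32.1 and 35.5 CPM in untreated WT and 50.6, 41.8 and 36.0 CPM in untreated KO libraries. The difference was 0.35 (edgeR FDR 0.0367), and 0.21 (0.304) without KO replicate 1. Its call was lost without any 1 of 4 of the 6 libraries compared. Timp3 was also called after 30 min (0.60, edgeR FDR 0.000501) and 4 h (0.53, 0.000353) of Jurkat cells, and those calls held. With OVA the differences of 0.24 and 0.29 were not called (FDR 0.162 and 0.0722), but both were called in fits of only the groups compared (0.0413 and 0.000933). At 4 h total counts (0.0453), no filter (0.0451) and a replicate block within genotypes (0.0469) also gave a call. Of its exon bases 1732 overlap exons of Syn3 on the other strand.

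Stroma transcripts moved with genotype in the same direction as these genes. The summed level of the 12 stroma markers in KO was 1.37 times that in WT in untreated cells, 1.46 and 1.53 times after 30 min of OVA and of Jurkat cells, and 1.498 and 1.31 times at 4 h. Of the 12 markers, 9, 9, 9, 6 and 8 were called higher in KO in that order and 0 lower. The share of all genes called higher was 6.00%, 6.25%, 5.58%, 6.22% and 9.37%. Bgn and Lamc1 were most like Timp2 (Pearson r 0.937 and 0.936), and Colec12 and Lox most like Timp3 (0.926 and 0.925). Sparc and Pam, of which only Sparc is a stroma marker here, were most like Mmp2 (0.948 and 0.947). All are over the 18 libraries without Jurkat cells. Per 100 CPM of stroma markers, Timp1 was at 2.22 ± 0.057 in untreated KO and 2.14 ± 0.047 in untreated WT libraries (SD, n = 3), a ratio of 1.04 in place of 1.42. For Timp2 the untreated ratio changed from 1.25 to 0.913, for Timp3 from 1.28 to 0.925 and for Mmp2 from 1.31 to 0.954. With OVA and Jurkat cells at 30 min and then at 4 h, Mmp2 had 0.877, 0.807, 0.817 and 0.881. These were all lower in KO with no overlap. In the same order Timp2 had 0.814, 0.788, 0.82 and 0.952, and Timp3 0.82, 0.994, 0.819 and 1.11. Both overlapped after 4 h of Jurkat cells, and Timp3 also after 30 min of them, but not otherwise. Timp1 had 1.05, 1.07, 0.922 and 1.05, with overlap throughout. For Mmp12 the ratio changed from 2.11 to 1.49 in untreated cells, where the libraries then overlapped. It was, after 30 min of OVA, 30 min of Jurkat cells, 4 h of OVA and 4 h of Jurkat cells, 1.25, 0.932, 1.16 and 1.47, and only in the last did the libraries not overlap. Mmp19 had 1.15 in untreated cells and 0.957, 0.826, 1.16 and 1.44 in the same order, with no overlap in the last 3, the first of them being lower in KO. The Mmp14 ratio per stroma marker was 1.02 in untreated cells, with overlap, against 1.40 in CPM. With OVA and Jurkat cells at 30 min it was 0.854 and 0.854, against 1.25 and 1.31 in CPM. At 4 h it was 0.557 with OVA and 0.839 with Jurkat cells, against 0.835 and 1.10 in CPM. Per stroma marker, Mmp14 was thus lower in KO with no overlap in every treated condition. These ratios compare summed RNA and were not tested.

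**Figure D4:**
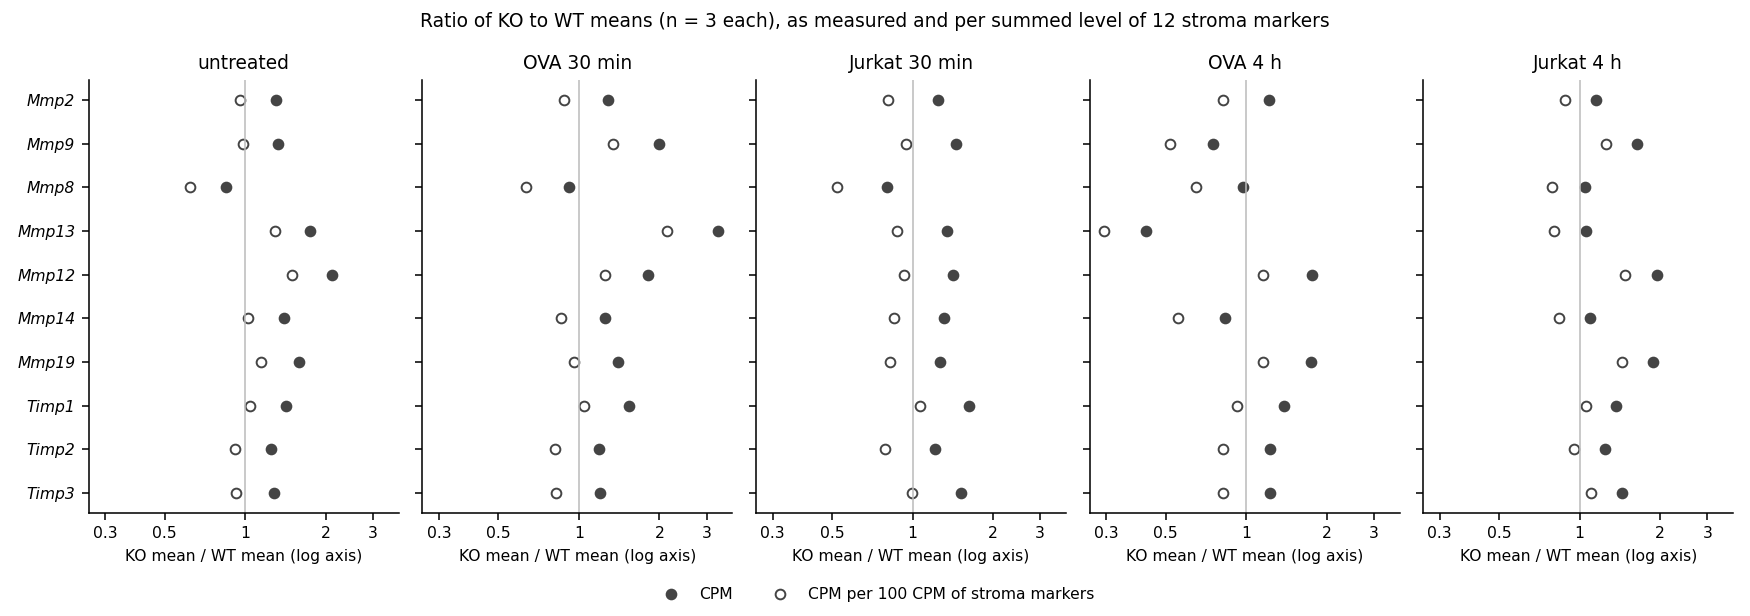
KO mean divided by WT mean (log axis, n = 3 each) for each gene in the 5 conditions, from CPM (filled) and from CPM per 100 CPM of 12 stroma markers (open). The open points of Timp1, Timp2, Timp3 and Mmp2 in untreated cells lie between 0.913 and 1.04, and that of Mmp12 is at 1.49 in place of 2.11. In treated cells those of Mmp2 lie between 0.807 and 0.881 and those of Timp2 between 0.788 and 0.952.

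Markers of other cells that carry these enzymes were counted as well. All 8 basophil or mast cell markers were called higher in KO after Jurkat cells at 30 min and 4 h and 7 of 8 in the other 3 conditions. The share of all genes called higher in KO ran from 5.58% to 9.37% over the 5 conditions. The sum of these 8 markers was 147.9 to 159.3 CPM in untreated WT and 195.0 to 222.8 CPM in untreated KO libraries. Of the 12 monocyte or macrophage markers 1 was called higher and 0 lower in untreated KO cells, with sums of 3178 to 3458 CPM in WT and 3409 to 4047 CPM in KO. With OVA and Jurkat cells at 30 min and then at 4 h, 1, 1, 0 and 1 were called higher. In the same order 1, 1, 3 and 2 were called lower, against 12.4%, 9.25%, 12.6% and 22.9% of all genes called. No defining marker of these lists was at 0 in an untreated group. Their part in the differences between genotypes was not tested.

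Treatment changed few of the genes at 30 min. In WT cells OVA raised 1 of the 9 genes tested (10.7% of all genes called, 5.51% higher), Mmp19 by 0.44 on the log2 scale (SE 0.132, edgeR FDR 0.0295). Jurkat cells raised 2 of 9 (28.7% of all genes called, 14.2% higher), Mmp12 by 0.59 (edgeR FDR 0.0422) and Mmp8 by 0.30 (0.00448), of which DESeq2 called 1. In KO cells 0 of 9 were called with either treatment by edgeR, against 3.77% of all genes with OVA and 17.0% with Jurkat cells. At an unadjusted p under 0.05 there were 2 and 2, and DESeq2 called 0 in both. Of the WT calls, that of Mmp19 with OVA was lost without any 1 of 3 of the 6 libraries compared, and with Jurkat cells that of Mmp12 without any 1 of 4. The differences between the genotypes' responses at 30 min were not called for any of the 9, with 0% of all genes called for OVA and 0.00675% for Jurkat cells, and 0 of 9 had an unadjusted p under 0.05 in either, nor did DESeq2 call any (0 and 0). The Mmp14 responses, with no test, were 0.31 and 0.21 in WT and 0.15 and 0.12 in KO to OVA and Jurkat cells.

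After 4 h of OVA 4 of the 9 genes tested were called higher in WT cells (23.5% of all genes called, 11.9% higher). Mmp13 rose by 1.92 on the log2 scale (edgeR FDR 0.00238), Mmp9 by 1.03 (0.00625), Timp1 by 0.30 (0.0297) and Timp3 by 0.30 (0.0439). Without WT OVA replicate 3 the values for Mmp13 and Mmp9 were 1.03 and 0.25 and all 4 FDRs were over 0.05 (0.0912, 0.374, 0.0798 and 0.16), while Mmp12, at 0.52 with all libraries (FDR 0.0841), was then at 0.67 (0.0358). The Timp1 call was lost without any 1 of 4 of the 6 libraries compared and the Timp3 call without any 1 of all 6. In KO cells 0 of 9 were called by edgeR (11.6% of all genes) and 0 by DESeq2, with 3 at an unadjusted p under 0.05. Without KO untreated replicate 1 the count was 3 of 9, Mmp19, Timp1 and Timp3.

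Apoptotic Jurkat cells at 4 h changed 8 of the 9 genes tested in each genotype, 7 higher and Mmp8 lower. Most genes of the whole table were called in this contrast too, 79.5% for WT cells, of which 38.9% were higher and 40.6% lower. For KO cells the figure was 78.5%, with 37.5% higher and 41.0% lower. Mmp13 rose from 7.39 to 12.9 CPM in untreated WT libraries to 148.3, 166.1 and 167.2 CPM, and from 14.0 to 22.1 CPM to 132.1, 219.7 and 155.8 CPM in KO. These were rises of 16.3-fold and 9.78-fold (4.02 and 3.29 on the log2 scale). Timp1 rose to 58.5, 48.7 and 56.9 CPM in WT and 72.2, 82.1 and 70.7 CPM in KO, by 1.59 and 1.54. Timp3 rose to 103.9, 85.2 and 96.8 CPM in WT and 129.7, 157.8 and 125.4 CPM in KO, by 1.51 and 1.69. For all 3 genes every treated library was above every untreated library of its genotype. Mmp9 rose by 1.12 in WT and 1.43 in KO, and Mmp2 by 0.66 and 0.47. Mmp8 fell by 1.04 in WT and by 0.73 in KO on the log2 scale, to 4.28, 5.11 and 4.75 CPM in WT and 4.71, 5.72 and 4.33 CPM in KO.

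The smaller responses at 4 h of Jurkat cells depended on scaling. Scaling to total counts put the median of all genes at -0.42 in WT and -0.37 in KO, against -0.02 and -0.03 with composition scaling. Over all genes 3570 of 12328 calls were then higher in WT and 3531 of 12115 in KO, in place of 5761 of 11778 and 5548 of 11619. Timp2 was 0.17 and 0.16 higher in WT and KO (edgeR FDR 0.0362 and 0.047). With total counts Timp2 was called lower, at -0.23 and -0.18 (edgeR FDR 0.0064 and 0.027), that is still above the median of all genes. With no filter on low counts it was not called in either genotype (edgeR FDR 0.0857 and 0.0945). Mmp19 was at 0.02 in WT and 0.26 in KO and was called in neither (FDR 0.89 and 0.054). With total counts Mmp19 in WT was called lower, at -0.38 (edgeR FDR 0.015), close to the median of all genes. Mmp12 rose by 0.64 in WT and 0.52 in KO, and was 0.23 and 0.18 higher with total counts, where it was not called. The Mmp2 response in KO, 0.47 with composition scaling, was 0.13 with total counts and not called (FDR 0.181). The Mmp12 calls were also lost without any 1 of 2 libraries in WT and 4 in KO, and the Timp2 calls without any 1 of 3 in WT and 4 in KO.

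**Figure D5:**
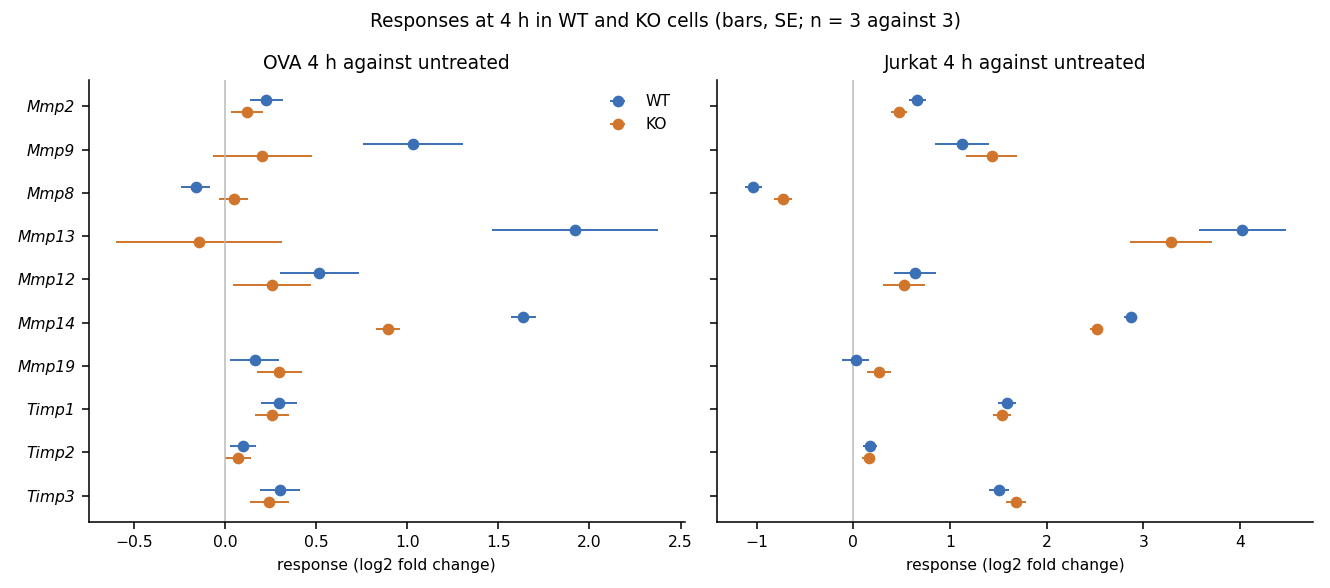
Response at 4 h (log2 fold change against untreated cells of the same genotype, bars 1 SE, 3 libraries against 3) to OVA and to Jurkat cells for each gene, with WT in blue and KO in orange. With Jurkat cells Mmp13 (4.02 and 3.29) and Mmp14 (2.87 and 2.52) lie farthest right and Mmp8 (-1.04 and -0.73) left of 0, and with OVA Mmp14 is at 1.64 in WT and 0.89 in KO.

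The differences between the genotypes' responses to 4 h of Jurkat cells were not called for any of the 9 genes by edgeR or DESeq2 (0 and 0), with 1 at an unadjusted p under 0.05, against 4.26% of all genes called. With total counts 661 of the 861 genes called over the whole table were higher in KO, in place of 254 of 631. The interval of that difference was widest for Mmp13, -1.97 to 0.51. For Timp1 it was -0.32 to 0.22, for Timp2 -0.22 to 0.20 and for Timp3 -0.12 to 0.48.

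Stroma and T lineage markers also moved with the Jurkat cells at 4 h. The stroma marker sum was 1176 to 1350 CPM in WT and 1461 to 1796 CPM in KO, with 10 and 11 of 12 markers called higher than in untreated cells. The summed level of 18 T lineage markers was 203.9 to 247.8 CPM in WT and 172.5 to 198.0 CPM in KO, against 87.4 to 93.2 and 100.2 to 108.3 CPM in untreated cells. How the counting treated human reads is not given in the sources used here, and whether reads of the Jurkat cells added to the counts of these genes was not tested.

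The other 17 genes of the family in the table were mostly low, and 11 of them passed the filter. In untreated cells 3 were called higher in KO and 2 lower, against 9.97% of all genes called in either direction, with a median difference of 0.23. Mmp7, matrilysin, was lower in KO, at 0.508 against 1.26 CPM (-1.31, edgeR FDR 5.26e-05). Mmp25, a membrane-anchored protease of leukocytes that is also in the neutrophil list, was lower at 26.5 against 38.9 CPM (-0.56, FDR 0.000144), and Mmp3, stromelysin 1, was higher at 1.49 against 0.639 CPM (1.22). After 4 h of Jurkat cells Mmp25 rose from 38.9 to 258.1 CPM in WT and from 26.5 to 211.7 CPM in KO, by 2.73 on the log2 scale in WT cells. Mmp28, epilysin, fell by 1.95 and by 2.02. Mmp1a was at 0 CPM in all groups, which allows up to 3 counts per library.

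Genes that activate or regulate these proteases were higher in KO in part. Of 19 tested, 6 were called higher and 0 lower in untreated cells, 5 and 0 after 30 min of OVA, 3 and 1 after 30 min of Jurkat cells, 6 and 1 after 4 h of OVA and 5 and 3 after 4 h of Jurkat cells. Over all genes 6.00%, 6.25%, 5.58%, 6.22% and 9.37% were called higher in that order. Furin, a convertase that cuts the propeptide of MMP14, rose by 1.32 in WT and 1.08 in KO after 4 h of Jurkat cells, and the difference of -0.24 was called (FDR 0.0279). Plaur, the urokinase receptor, rose by 2.62 and 1.99, with a called difference of -0.63 (FDR 0.000326).

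Matrix substrates were mostly called higher in KO. Of 13 matrix substrates tested, 12, 13, 12, 8 and 13 were called higher in KO in untreated cells, 30 min of OVA, 30 min of Jurkat cells, 4 h of OVA and 4 h of Jurkat cells, and 0 lower. Several of them, such as Col1a1, Col1a2, Col3a1 and Bgn, are also stroma markers. The share of all genes called higher in KO was 6.00%, 6.25%, 5.58%, 6.22% and 9.37% in the same order. The ADAM family, another group of metalloproteases, gave 2, 3, 1, 1 and 3 called higher and 0, 0, 0, 1 and 0 lower of 13 tested, counts that in part lie near the share of all genes, with Adamts2, a procollagen protease, called higher in all 5 conditions (0.56 in untreated cells).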

How the data were processed

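Counts of reads per gene for 30 libraries, with an interval on mm10 for each gene, were deposited by the authors as 1 table, and all count columns matched a sample title. STAR 2.5, Subread's featureCounts 1.5.0-p1 and DESeq2 are named in the submitters' processing notes. For the annotation, the use of strand and the handling of human reads, the steps taken were not given in the sources used here. The kit, per the labels' protocols, was Illumina TruSeq RNA v2.

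From the deposited counts, edgeR 4.0.16 (R 4.3.3) was run on all 30 libraries with 1 mean per group, TMM scaling and filterByExpr, which left 14808 of 25611 rows. The quasi-likelihood F test was two-sided, with Benjamini-Hochberg adjustment over all genes tested and a call at an FDR under 0.05. SEs were taken as the absolute log2 change over the square root of F. CPM use TMM-scaled library sizes, TMM factors were 0.765 to 0.842 with Jurkat cells at 4 h and 1.03 to 1.07 otherwise, and no 2 libraries were identical. The test was also run on simulated data with known changes. Counting floors cover counting error only.

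Mmp14 was left out of the tests in every contrast with an untreated or OVA 4 h library, which for the contrasts with 30 min or Jurkat libraries was decided after their results were seen. The genes, the gene lists and the tests were chosen with earlier results of these data known, and the osteoclast and osteoblast lists after the values of Mmp9 and Mmp13 were seen. Named genes of a list are the 3 with the smallest p among its calls in a contrast. Alternatives were DESeq2 1.42.0 size factors and test, total counts, no filter, the replicate number as a block, a filter of 5 CPM in 3 libraries, a fit of the compared groups alone and leaving out each library. Leaving out 2 high libraries together was added after seeing the data. Promoters came from RefSeq (GRCm38.p6) and exon lengths from GENCODE.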

Additional observations from a re-analysis of the deposited data

How the results depend on the processing

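Of the counts of called genes, 129 stayed within 1.5 times under the alternatives and 4 did not. The WT response to 30 min of Jurkat cells had 2 called genes and 1 in DESeq2. The KO response to 4 h of OVA had 0 called genes and 2 in a fit of only the groups compared. With the 2 high libraries (KO OVA 30 min replicate 2 and WT OVA 4 h replicate 3) left out, an alternative added after seeing the data, KO against WT at 30 min of OVA had 3 in place of 8, and the WT response to 4 h of OVA 2 in place of 4.

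Leaving out 1 library at a time gave the following ranges of called genes. KO against WT had 4 to 6 untreated, 2 to 9 with OVA at 30 min, 3 to 7 with Jurkat cells at 30 min, 4 to 5 with OVA at 4 h and 5 to 5 with Jurkat cells at 4 h. The WT responses had 0 to 1 (OVA 30 min), 1 to 2 (Jurkat 30 min), 1 to 3 (OVA 4 h) and 6 to 8 (Jurkat 4 h). The KO responses had 0 to 1, 0 to 1, 0 to 3 and 6 to 9 in that order, and the differences between responses 0 to 0 in each of the 3 tested, at OVA 30 min, Jurkat 30 min and Jurkat 4 h. The causes were not tested.

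For single genes, total counts reversed the responses to 4 h of Jurkat cells of Mmp19 in WT (-0.38 against 0.02) and of Timp2 in WT (-0.23 against 0.17) and KO (-0.18 against 0.16). With both high libraries left out, the OVA 4 h differences between responses turned from -0.11 to 0.018 for Mmp2 and from -0.03 to 0.0267 for Timp2. Leaving out 1 library reversed such OVA 4 h differences, none of them tested: Mmp2 ran from -0.176 to 0.018, Mmp12 from -0.485 to 0.0379, Timp1 from -0.116 to 0.0489, Timp2 from -0.0853 to 0.0702 and Timp3 from -0.169 to 0.0787. Of the other single-gene alternatives 22 lost and 24 gained a call, and with 1 library left out 75 lost and 14 gained one.

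Replicate numbers did not clearly pair the libraries. Correlations of deviations from the group means ran from -0.12 to 0.15, and 0 of 13 pairs of groups had all correlations over 0.1. In 16 of 39 library pairs the library of the same number correlated best. In WT every library of Jurkat 30 min and OVA 4 h correlated best with the untreated library of its number, at r 0.0125 to 0.0583. No KO library of these treatments did, so a weak pairing in WT is not excluded. With the number as a replicate block every count of called genes was as without it (6, 8, 6, 5 and 6 for KO against WT), and with a replicate block within genotypes KO against WT at 4 h of OVA had 6 in place of 5. Depth limits the low genes most, among them Mmp19 at 5.68 to 14.7 CPM.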
